A study of Mus musculus with 6 samples.

Results

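The genes described here were the 4 myocyte enhancer factor 2 genes, *Mef2a*, *Mef2b*, *Mef2c* and *Mef2d*, and the 4 class IIa histone deacetylase genes, *Hdac4*, *Hdac5*, *Hdac7* and *Hdac9*, in differentiating C2C12 cells with and without a knockout of *Phf2*. They were taken by symbol from the deposited matrix, and each of the 8 stood on a single row among 55401 genes. C2C12 is a line of mouse myoblasts, which leave the cell cycle and fuse into myotubes when serum is lowered. Poly(A) RNA was sequenced 2 d after the growth medium was replaced by medium with 2% horse serum. There were 3 control and 3 *Phf2* KO libraries. The control cells, named wild type in the labels, carried a Cas9 and ZsGreen1 plasmid whose guide matches no mouse sequence. The *Phf2* KO cells received a pool of plasmids with Cas9, ZsGreen1 and guides against *Phf2*, which encodes a demethylase of histone H3 dimethylated at lysine 9 (H3K9me2). Cells of both groups were sorted for ZsGreen1 and not cloned, so each library comes from a mixture of sorted cells. The replicates were wells of a single experiment from 1 sorted pool per group. The p-values therefore measure the spread between these wells, and a difference between the pools cannot be told apart from an effect of *Phf2*. Only the *Phf2* KO pool received guides that cut the genome. The study states that it does not exclude an effect of the DNA breaks themselves.

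MEF2 proteins are MADS box transcription factors that bind an A/T-rich DNA element in the control regions of many muscle genes, where they act together with the myogenic factors MYOD1 and myogenin. Class IIa histone deacetylases bind MEF2 on DNA and repress its targets. Their phosphorylation by calcium-dependent and other kinases makes 14-3-3 proteins bind them and keeps them out of the nucleus, which releases MEF2 during muscle differentiation. RNA levels show nothing of this phosphorylation or of where the proteins reside.

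In GENCODE M21 (GRCm38), *Mef2c* (ENSMUSG00000005583) lies on chr13:83504034-83667080 of the plus strand and has 31 annotated transcripts. *Mef2a* (ENSMUSG00000030557) lies on chr7:67231163-67372858 of the minus strand. *Mef2d* (ENSMUSG00000001419) and *Mef2b* (ENSMUSG00000079033) lie on the plus strand, at chr3:88142372-88172086 and chr8:70139711-70167488. The 4 deacetylase genes are all on minus strands. *Hdac4* (ENSMUSG00000026313) spans chr1:91928779-92195699, *Hdac5* (ENSMUSG00000008855) chr11:102194432-102230166, *Hdac7* (ENSMUSG00000022475) chr15:97792664-97844502 and *Hdac9* (ENSMUSG00000004698) chr12:34047580-34917095.

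The promoters of the 3 *Mef2* genes with lower RNA in *Phf2* KO cells, and that of *Hdac5* as a family member with a MEF2 motif, are printed below from the RefSeq tables of GRCm38.p6. H3K9me2 at *Mef2c* was assayed in the study with a primer pair inside the *Mef2c* window, and that assay was not analysed here. The *Mef2c* window runs from 250 bases before the first start site to 30 after it (chr13:83503784-83504063, plus strand). The windows of *Mef2a* (chr7:67372829-67372958, minus strand), *Mef2d* (chr3:88142272-88142401, plus strand) and *Hdac5* (chr11:102230143-102230272, minus strand) run from 100 bases before the start to 30 after it. Capitals mark E-boxes (CANNTG with any bases at NN, a general element that the myogenic factors share with other factors) and the MEF2 consensus.
Mef2c: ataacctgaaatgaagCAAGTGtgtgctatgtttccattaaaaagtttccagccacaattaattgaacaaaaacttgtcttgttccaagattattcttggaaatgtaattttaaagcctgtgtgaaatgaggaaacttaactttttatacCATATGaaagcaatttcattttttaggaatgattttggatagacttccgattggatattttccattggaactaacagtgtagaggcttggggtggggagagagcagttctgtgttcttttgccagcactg
Mef2a: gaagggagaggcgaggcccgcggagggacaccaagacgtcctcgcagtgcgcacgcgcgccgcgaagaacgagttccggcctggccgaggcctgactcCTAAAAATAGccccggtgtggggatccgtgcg
Mef2d: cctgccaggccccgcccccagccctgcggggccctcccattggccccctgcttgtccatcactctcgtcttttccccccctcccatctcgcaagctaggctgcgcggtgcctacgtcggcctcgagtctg
Hdac5: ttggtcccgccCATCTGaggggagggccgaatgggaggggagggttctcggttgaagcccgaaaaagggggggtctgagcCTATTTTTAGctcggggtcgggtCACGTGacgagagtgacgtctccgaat

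Both motifs read the same on both strands and were searched in windows from 250 bases before to 50 after each RefSeq start. All 8 genes matched, with 14 windows in all. The MEF2 consensus was in 2 of these 14, against 3.19% of 32851 promoters. It lay at -2 to 8 of the *Mef2a* start and at -20 to -11 of the *Hdac5* start. An E-box was in 8 of the 14 windows, against 72.3% of all promoters. The first *Mef2c* window held E-boxes beginning at -234 and -100, while none was found in the windows of *Mef2a*, *Mef2d* and *Hdac4*. The first *Mef2c* window was also poor in CpG, with 1 CpG and 35.7% GC, against a median of 7 CpG over all promoters. Its other windows held 10 and 4 CpG, those of *Hdac9* 0 and 3, those of *Hdac7* between 5 and 35, and that of *Mef2b* 11. The windows of *Mef2a*, *Mef2d*, *Hdac4* and *Hdac5* held 27, 24, 32 and 18 CpG. A match describes the letters in a window and not a bound site.

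The totals of estimated counts were 56821143 to 58507833 in the control libraries and 52526109 to 67502788 in the *Phf2* KO libraries. *Phf2* itself was at 102.4, 95.5 and 104.6 CPM (each count relative to its library's total, with the totals adjusted by TMM) in control 1, 2 and 3. In *Phf2* KO 1, 2 and 3 it was at 41.1, 37.6 and 38.6 CPM, 38.8% of the control mean. Of 17310 genes tested by edgeR's quasi-likelihood test, 1122 (6.48%) had an adjusted p under 0.05. Of these, 565 (3.26%) were lower and 557 (3.22%) higher in *Phf2* KO cells.

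Of the 8 genes, 3 passed the threshold, all lower in *Phf2* KO cells: *Mef2c*, *Mef2d* and *Mef2a*. The background share lower was 3.26% of all genes tested. None of the 4 deacetylase genes passed in edgeR's quasi-likelihood test, exactTest, DESeq2 or limma-voom. In the quasi-likelihood test, 1 of them, *Hdac7*, had an unadjusted p under 0.05. All 8 genes passed the filter on low counts, but *Mef2b* only through its counts in *Phf2* KO libraries, so it is left out of the next counts and medians. Of the other 7 genes, the groups did not overlap for 4, the 3 called *Mef2* genes and *Hdac7*, against 25.1% of all genes. The median log2 fold change was -0.279 over the 3 *Mef2* genes and -0.0188 over the deacetylase genes, beside -0.000958 over all genes tested. In such bulk RNA, fewer cells of a type and less RNA per cell cannot be told apart.

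**Figure D1:**
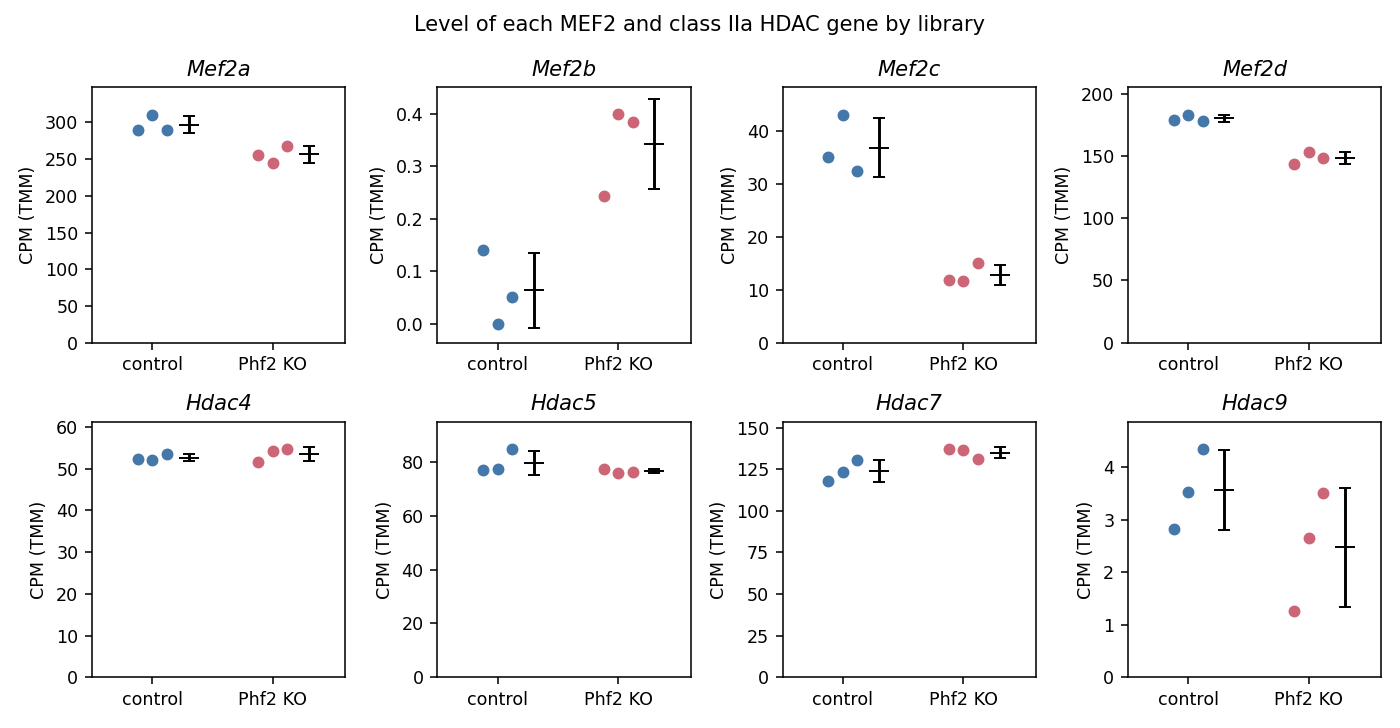
Level of each gene in every library, in TMM-scaled CPM, with control libraries beside *Phf2* KO libraries and the mean ± SD of each group as a bar (n = 3). *Mef2c* lay between 32.4 and 43.1 CPM in control and between 11.6 and 15.0 CPM in *Phf2* KO libraries, while the levels of *Hdac4* and *Hdac5* overlapped between the groups.

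*Mef2c*, the family member that is required for the assembly of sarcomeres in skeletal muscle, had the largest change of the 3 genes past the threshold. It was at 35.0, 43.1 and 32.4 CPM in control 1, 2 and 3 and at 11.9, 11.6 and 15.0 CPM in *Phf2* KO 1, 2 and 3. Every *Phf2* KO library was below every control library. The mean fell from 36.8 ± 5.56 to 12.8 ± 1.86 CPM (SD, n = 3), 34.8% of control. This is a log2 fold change of -1.52 with a standard error of 0.126 and a 95% interval of -1.80 to -1.24 (adjusted p = 6.97e-05, edgeR's quasi-likelihood test). By p, *Mef2c* ranked 38 among the 17310 genes. With each library left out in turn, its log2 fold change lay between -1.65 and -1.39.

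*Mef2d*, which is expressed in myoblasts as well as in myotubes and has a muscle splice form, fell less. Its levels were 179.1, 183.3 and 178.6 CPM in control 1, 2 and 3. The *Phf2* KO libraries held 143.7, 153.6 and 148.7 CPM and did not overlap with the control libraries. The means were 180.4 ± 2.59 and 148.7 ± 4.96 CPM (SD, n = 3), 82.4% of control. The log2 fold change was -0.28 (SE 0.044, adjusted p = 0.00173, quasi-likelihood test). The gene table cannot tell the splice forms apart.

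*Mef2a*, the family member with the highest count here, was at 290.1, 310.5 and 289.9 CPM in control 1, 2 and 3. In *Phf2* KO 1, 2 and 3 it was at 255.8, 245.1 and 268.4 CPM. The groups did not overlap, with the lowest level in *Phf2* KO 2 and the highest in control 2. The means were 296.8 ± 11.9 and 256.4 ± 11.6 CPM (SD, n = 3), 86.4% of control. The log2 fold change was -0.21 (SE 0.047, adjusted p = 0.0156). This call was lost without control 2 (log2 fold change -0.18, adjusted p = 0.110) and without *Phf2* KO 2 (-0.18, adjusted p = 0.0956). *Mef2a* shares 302 exonic bases with *Lysmd4* and *Mef2d* 531 with *1700113A16Rik*, both on the opposite strand, and the strand setting of the counting was not given in the sources used here.

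*Mef2b*, a family member best known from B cells, was near the limit of detection. It had 8, 0 and 3 estimated counts in control 1, 2 and 3 and 15, 21 and 26 in *Phf2* KO 1, 2 and 3. All *Phf2* KO libraries were above all control libraries. It passed the filter on low counts only through the group in which it is higher, so no fold change or test is given for it. *Mef2b* shares 62 exonic bases on the same strand with *Borcs8*, which had 738 to 1128 counts per library, so its few counts are uncertain.

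**Figure D2:**
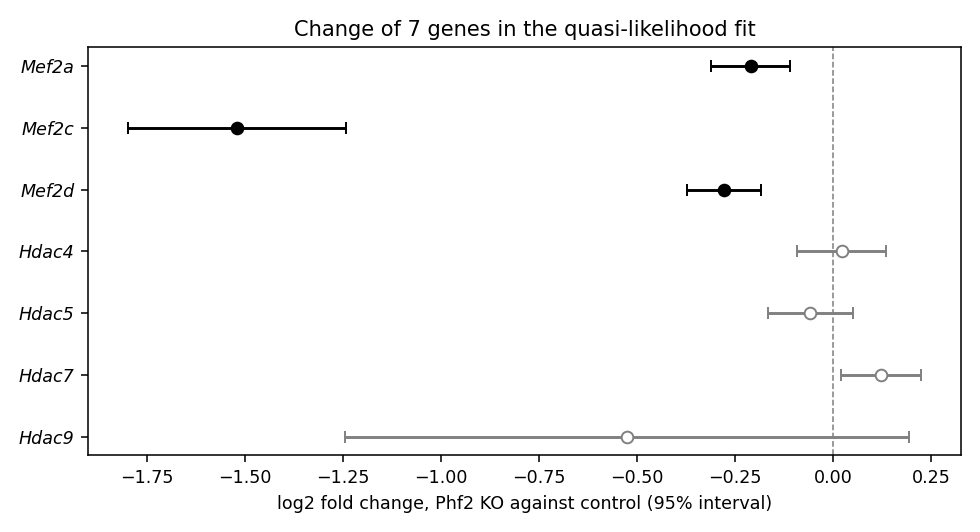
Log2 fold change of each gene in *Phf2* KO against control cells with its 95% interval from edgeR's quasi-likelihood fit, filled where the adjusted p was under 0.05. *Mef2b* is not drawn. The intervals of *Mef2c*, *Mef2d* and *Mef2a* lie below 0, that of *Hdac7* runs from 0.02 to 0.22, and those of *Hdac4*, *Hdac5* and *Hdac9* include 0.

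Among the deacetylase genes, *Hdac4* and *Hdac5* encode the repressors of MEF2 best studied in muscle. *Hdac4* was at 52.4, 52.1 and 53.5 CPM in control 1, 2 and 3 and at 51.5, 54.2 and 54.7 CPM in *Phf2* KO 1, 2 and 3. *Hdac5* was at 76.9, 77.3 and 84.7 CPM in control and at 77.3, 75.9 and 76.3 CPM in *Phf2* KO libraries. The groups overlapped for both genes, and control 3 held the highest *Hdac5* level. For *Hdac4* the 95% interval of the fold was 0.938 to 1.10 (log2 fold change 0.02, adjusted p = 0.890). For *Hdac5* it was 0.891 to 1.04 (log2 fold change -0.06, adjusted p = 0.602). The annotation also lists 3536 bases of the antisense gene *Gm26720* over *Hdac4* exons. *Hdac5* shares 111 exonic bases on the same strand with the microRNA gene *Mir8101*, which had 1 estimated count in each library.

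*Hdac7*, which in muscle represses differentiation while it is nuclear, was at 117.8, 123.3 and 130.9 CPM in control 1, 2 and 3. It was at 137.1, 136.7 and 131.0 CPM in *Phf2* KO 1, 2 and 3. The groups did not overlap, although control 3 and *Phf2* KO 3 were nearly equal. The log2 fold change was 0.12 with a 95% interval of 0.02 to 0.22, and the gene did not pass the threshold (unadjusted p = 0.0234, adjusted p = 0.169, quasi-likelihood test). *Hdac7* shares 29 exonic bases with *Slc48a1* on the opposite strand, which had 4435 to 5295 estimated counts per library.

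*Hdac9*, itself a known target of MEF2 and its repressor, was the least expressed deacetylase gene of the class. It was at 2.82, 3.54 and 4.34 CPM in control 1, 2 and 3 and at 1.27, 2.65 and 3.52 CPM in *Phf2* KO 1, 2 and 3. The groups overlapped, with the lowest level in *Phf2* KO 1. The log2 fold change was -0.52 with a wide 95% interval of -1.24 to 0.19 (adjusted p = 0.438). Without *Phf2* KO 1 or another single library, it lay between -0.87 and -0.21.

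Levels of different genes were compared per length, as CPM per kb of the union of annotated exons. On this scale *Mef2d* was highest in control cells at 30.1 ± 0.433, followed by *Mef2a* at 20.2 ± 0.808 and *Hdac7* at 18.4 ± 0.971 CPM per kb (SD, n = 3). *Hdac5* stood at 9.07 ± 0.501, *Hdac4* at 3.33 ± 0.0465 and *Mef2c* at 2.34 ± 0.354 CPM per kb. *Hdac9* at 0.243 ± 0.0519 and *Mef2b* at 0.0455 ± 0.0505 CPM per kb closed the order. In the control libraries no neighbours in this order overlapped. *Mef2a* was above *Hdac7* in every control library, and *Hdac7* was above *Mef2a* in every *Phf2* KO library, where they stood at 20.0 ± 0.502 and 17.5 ± 0.792 CPM per kb. In *Phf2* KO cells *Mef2c* was at 0.816 ± 0.118 CPM per kb, below *Hdac4* at 3.38 ± 0.108. *Mef2b* and *Hdac9* overlapped there.

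The summed level of the 4 *Mef2* genes was 52.0, 54.5 and 51.7 CPM per kb in control 1, 2 and 3 and 42.4, 43.4 and 44.4 CPM per kb in *Phf2* KO 1, 2 and 3. All *Phf2* KO libraries were lower, with a mean difference of -9.38 CPM per kb (two-sided exact permutation test, p = 0.1, the smallest that 3 against 3 allows). Most of this sum came from *Mef2d* and *Mef2a*, and *Mef2c* made up 4.43% of it in control and 1.88% in *Phf2* KO cells. On this scale *Mef2d* made up 57.2% and 57.3%. The summed level of the 4 deacetylase genes was 29.7, 30.6 and 32.7 CPM per kb in control and 32.4, 32.5 and 31.8 CPM per kb in *Phf2* KO libraries, and the groups overlapped (p = 0.4, exact permutation test). The share of *Hdac7* in the deacetylase sum was 59.2% in control and 62.0% in *Phf2* KO cells, and that of *Hdac5* was 29.3% and 27.0% (both p = 0.1, exact permutation test).

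**Figure D3:**
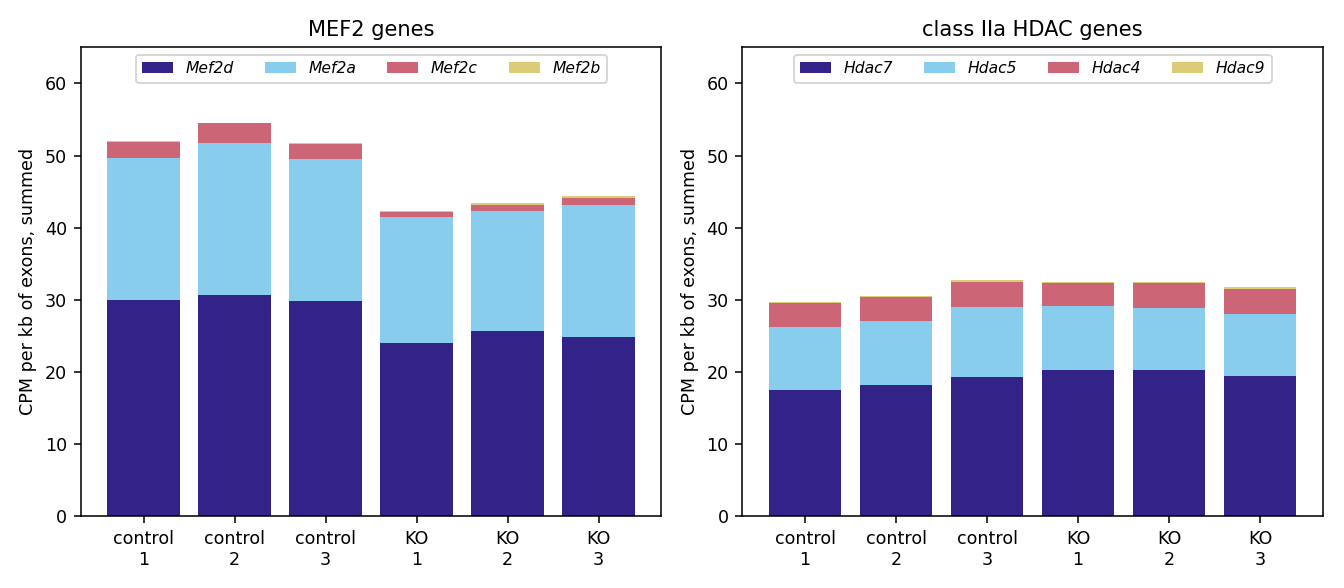
Summed level of the 4 *Mef2* genes and of the 4 class IIa deacetylase genes in each library, as stacked bars of CPM per kb of exons. The *Mef2* sums lie between 51.7 and 54.5 in control and between 42.4 and 44.4 in *Phf2* KO libraries, while the deacetylase sums overlap.

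The deposited tables also give each gene as TPM, a value per length that the authors' software scales within each library. The summed *Mef2* genes were at 187.2, 220.0 and 219.1 TPM in control 1, 2 and 3 and at 146.5, 140.2 and 210.7 TPM in *Phf2* KO 1, 2 and 3. Unlike on CPM per kb, these groups overlapped through *Phf2* KO 3 (p = 0.2, exact permutation test), and *Mef2a* was above *Hdac7* in all 6 libraries. On TPM the log2 ratio of the summed deacetylase genes to the summed *Mef2* genes was -1.24, -1.48 and -1.23 in control 1, 2 and 3. It was -0.81, -0.62 and -1.18 in *Phf2* KO 1, 2 and 3, so all *Phf2* KO libraries were higher, by 0.44 on average (p = 0.1, exact permutation test, the smallest possible). On CPM per kb the difference was 0.34 (exact permutation p = 0.1). *Mef2c* made up 4.65%, 8.37% and 4.32% of the summed *Mef2* TPM in control and 0.671%, 1.04% and 3.84% in *Phf2* KO libraries (p = 0.1, exact permutation test). Unlike on CPM per kb, *Mef2a* had the largest mean share of this sum, 56.3% in control and 53.4% in *Phf2* KO cells. *Mef2d* made up 37.8% and 44.6%, and the groups overlapped for both shares.

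Ratios of CPM within a library do not depend on the scaling between libraries. The log2 ratio of *Mef2c* to *Mef2a* was -3.02 ± 0.158 in control and -4.33 ± 0.144 in *Phf2* KO cells (SD, n = 3), a difference of -1.31. The ratio of *Mef2c* to *Mef2d* was -2.30 ± 0.192 and -3.54 ± 0.212, and neither ratio overlapped between the groups. For both, the exact permutation p was 0.1, and 0.3 after adjustment over the 6 ratios computed. The ratio of *Mef2a* to *Mef2d* differed by 0.07 and overlapped. Among the deacetylase genes, the log2 ratios to *Hdac4* differed by -0.08 for *Hdac5*, 0.10 for *Hdac7* and -0.65 for *Hdac9*, and all overlapped between the groups.

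The TPM of single genes differed from the counts in part. *Mef2c* was at 8.70, 18.4 and 9.47 TPM in control 1, 2 and 3 and at 0.984, 1.45 and 8.08 TPM in *Phf2* KO 1, 2 and 3. The groups did not overlap, but *Phf2* KO 3 was close to control 1, unlike on the counts. *Mef2a* was at 102.4, 122.6 and 128.0 TPM in control and at 86.1, 61.0 and 122.3 TPM in *Phf2* KO libraries, and the groups overlapped. *Mef2d* overlapped as well, at 75.9 to 81.5 TPM in control and 59.2 to 80.1 TPM in *Phf2* KO libraries. By limma on log2(TPM + 1), none of the 8 genes passed the threshold, and 1 had an unadjusted p under 0.05. The adjusted p was 0.219 for *Mef2c*, 0.447 for *Mef2a* and 0.655 for *Mef2d*. TPM order also differed in control cells, with *Mef2a* at 117.7 ± 13.5 TPM above *Mef2d* at 78.7 ± 2.79 TPM (SD, n = 3).

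The ratio of TPM to CPM per kb was compared across libraries. For *Mef2c* the highest ratio was 6.54 times the lowest, and for *Mef2a* 1.83 times. It was 27.1 times for *Hdac9* and 6.45 times for *Mef2b* over the 5 libraries with a count, both at low levels. For *Mef2d*, *Hdac4*, *Hdac5* and *Hdac7* it was between 1.19 and 1.31 times. The median over 10907 genes whose mean reached 5 CPM was 1.08, and 0.541% of them exceeded *Mef2c*. The deposited tables list transcripts under reference genes and also under assembled loci. TPM was also summed over the assembled loci that overlap the gene on its strand, a reading added after the values were seen. On it *Mef2c* was at 12.6, 20.9 and 14.8 TPM in control 1, 2 and 3. In *Phf2* KO 1, 2 and 3 it was at 4.67, 4.58 and 8.09 TPM. For *Phf2* KO 3 this sum and the reference row both round to 8.085 TPM, so they are not separate readings there. The *Mef2c* groups did not overlap on these sums, nor did those of *Mef2a*, while those of *Mef2d* did. Why the deposited TPM and counts differ was not tested.

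**Figure D4:**
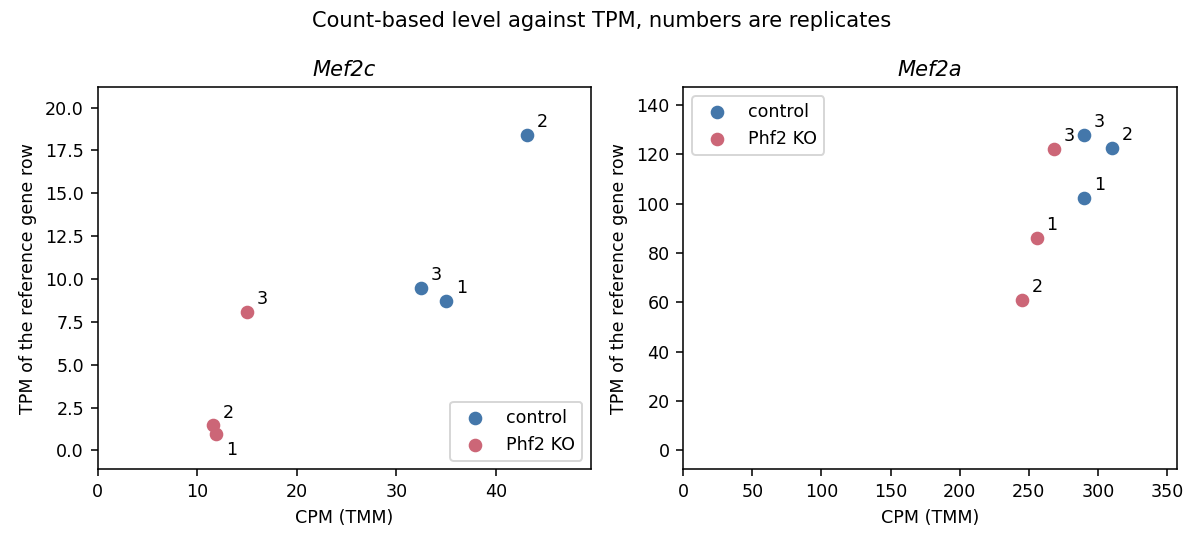
TPM of *Mef2c* and *Mef2a* against their TMM-scaled CPM, with a point for each library and its replicate number. *Phf2* KO 3 stands apart from the other *Phf2* KO libraries on TPM, at 8.08 for *Mef2c* and 122.3 for *Mef2a*, and lies closer to them on CPM.

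Genes known from the literature as targets of MEF2 or of the class IIa repressors were counted next. The list was chosen with earlier results of these data known. The study names *Myog*, *Tnni1* and *Lmod3* of the list from these samples, so their direction is not independent evidence. Of the 24 genes listed, 22 were tested. In *Phf2* KO cells 12 were lower past the threshold and 0 higher, against 3.26% and 3.22% of all genes. At an unadjusted p under 0.05, 15 were lower and 0 higher, and exactTest, DESeq2 and limma-voom also called 0 higher and 14, 13 and 12 lower. The median log2 fold change of the 22 was -0.40. Both the 15 and this median include *Slc2a4*, at 0.43 to 0.68 CPM in control and 0 to 0.23 CPM in *Phf2* KO libraries. It passed the filter on low counts only through the control group, where it is higher, so it lends no support. *Mb*, which encodes the oxygen-binding protein myoglobin, fell from 66.5 ± 5.88 to 34.0 ± 0.39 CPM (log2 fold change -0.97). *Ckm*, the muscle creatine kinase, fell from 201.6 ± 20.0 to 117.0 ± 6.98 CPM (-0.78; SD, n = 3 for both). *Lmod3*, a nucleator of thin filaments, fell by 0.59, and *Tnni1*, slow skeletal troponin I, by 0.54 on the log2 scale. *Srpk3*, a muscle kinase first known as a MEF2C target, fell by 0.53 and *Xirp1*, an actin-binding protein, by 0.46. These 3 calls were lost in some fits with 1 library fewer, though the log2 fold changes stayed negative. They lay between -0.63 and -0.48 for *Tnni1*, -0.65 and -0.42 for *Srpk3*, and -0.56 and -0.39 for *Xirp1*. The call of *Tnni1* was lost without control 1, *Phf2* KO 2 or *Phf2* KO 3 (adjusted p up to 0.106). That of *Srpk3* was lost without control 1, control 2, *Phf2* KO 2 or *Phf2* KO 3 (up to 0.155). That of *Xirp1* was lost without any 1 *Phf2* KO library (up to 0.0707). The early response genes *Jun*, *Klf2* and *Nr4a1*, known targets also outside muscle, had log2 fold changes of 0.10, 0.10 and -0.40 and did not pass (adjusted p = 0.510, 0.733 and 0.286). Without *Phf2* KO 2 or without *Phf2* KO 3, 7 targets were lower past the threshold.

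The muscle differentiation markers moved with these targets. All 10 markers were lower in *Phf2* KO cells in every library, against 12.2% of all genes lower without overlap, and 7 had an adjusted p under 0.05, against 3.26%. The study names 5 of the 10 from these samples and also reports slightly reduced *Myod1* by qPCR. The direction of these markers is therefore not independent evidence. Their median log2 fold change was -0.39, and their summed level was 7281 to 8483 CPM in control and 5841 to 6423 CPM in *Phf2* KO libraries. Of the targets, 3 (*Myog*, *Ckm* and *Des*) are also on the marker list, and 9 of the other 19 were lower past the threshold. The part of differentiation stage in the changes of *Mef2c*, *Mef2d*, *Mef2a* and the targets was not tested. Of 8 markers of cycling myoblasts, 0 passed the threshold by edgeR's quasi-likelihood test, exactTest, DESeq2 or limma-voom, and 0 had an unadjusted p under 0.05. Their sums overlapped, at 276.2 to 298.2 CPM in control and 274.4 to 297.3 CPM in *Phf2* KO libraries. One of the 8, *Myf5*, is reported by the study as slightly reduced by qPCR. Here its groups overlapped, with a log2 fold change of 0.14 (adjusted p = 0.282, quasi-likelihood test). The summed markers of adipocytes, osteoblasts, endothelial cells and leukocytes were at most 2.25 CPM in any library, and *Plin1* and *Ibsp* were at 0 in all. The 3 neuron markers summed to 6.39 to 9.86 CPM in control and 4.45 to 5.71 CPM in *Phf2* KO libraries, nearly all from *Tubb3*. The 3 cardiomyocyte markers summed to 18.7 to 26.4 and 10.9 to 12.2 CPM, nearly all from the myosin gene *Myh6*.

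**Figure D5:**
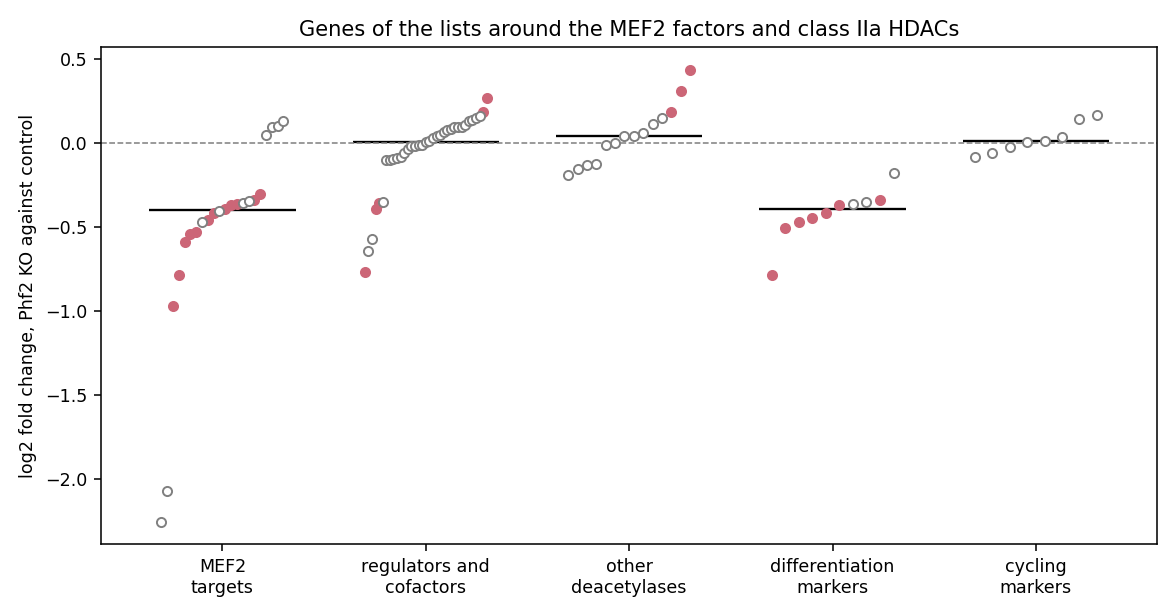
Log2 fold change of each tested gene of the lists in *Phf2* KO against control cells, filled where the adjusted p was under 0.05, with the median of each list as a line. The MEF2 targets have a median of -0.40, the regulators 0.006 and the other deacetylases 0.04. The lowest open points are *Slc2a4* (-2.07) and *Myl2* (-2.25), which were below 1 CPM in every library.

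The kinases, 14-3-3 proteins and cofactors that act on class IIa deacetylases or MEF2 were mostly not past the threshold. Of 35 tested, 30 did not pass, 3 were lower and 2 higher, against 3.26% and 3.22% of all genes, and the median log2 fold change was 0.006. At an unadjusted p under 0.05, 6 were lower and 8 higher. ExactTest, DESeq2 and limma-voom each called 3 lower, and 1, 2 and 1 higher. The groups did not overlap for 6 lower and 12 higher genes, against 12.2% and 12.9% of all genes. *Camk2a*, a calcium-dependent kinase of *Hdac4*, was at 72.6, 76.0 and 60.5 CPM in control 1, 2 and 3 and at 39.6, 42.1 and 41.4 CPM in *Phf2* KO 1, 2 and 3 (log2 fold change -0.77, adjusted p = 9.35e-05). *Sik1*, a kinase of class IIa deacetylases, fell by 0.39, and *Bcl6*, a transcriptional repressor that recruits them, by 0.36 on the log2 scale. *Prkd3*, a protein kinase D, rose from 112.7 ± 4.68 to 135.8 ± 3.09 CPM (SD, n = 3), and *Ncoa2*, a coactivator, rose by 0.19 on the log2 scale (adjusted p = 0.0452). The *Ncoa2* call was lost in 10 of 17 alternatives, among them exactTest (adjusted p = 0.0553), limma-voom (0.0750) and the fit without control 1 (0.192). *Hdac3*, the catalytic partner of class IIa enzymes in the corepressor complex, had a log2 fold change of -0.01 (adjusted p = 0.943).

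Of the 14 deacetylases outside class IIa, 0 were lower and 3 higher past the threshold by the quasi-likelihood test, against 3.22% of all genes higher. At an unadjusted p under 0.05, 1 was lower and 4 were higher, and exactTest, DESeq2 and limma-voom called 0 lower and 3, 3 and 2 higher. *Hdac8*, a class I enzyme, rose from 9.78 ± 1.18 to 13.2 ± 0.317 CPM (SD, n = 3, log2 fold change 0.44). *Sirt1*, an NAD-dependent enzyme, rose by 0.31, and *Hdac1*, a class I enzyme, by 0.18 on the log2 scale. These calls were lost in most fits with 1 library fewer, though the log2 fold changes stayed positive. They lay between 0.35 and 0.53 for *Hdac8*, 0.24 and 0.38 for *Sirt1*, and 0.17 and 0.20 for *Hdac1*. None of the 3 remained without control 1, control 3, *Phf2* KO 2 or *Phf2* KO 3, and 1 deacetylase passed without control 2.

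The genes with levels most like those of the 3 changed *Mef2* genes were taken by the root mean square difference of centred log2 CPM over the 6 libraries, among 10922 genes. Nearest to *Mef2c* were *Myh8*, the perinatal myosin heavy chain, at 0.142, *Nptx1*, neuronal pentraxin, at 0.176, and *Phf2* at 0.212. *Myh8* was at 91.2 CPM in control and 27.0 CPM in *Phf2* KO cells on average. Nearest to *Mef2d* were *Polr1a*, the largest subunit of RNA polymerase I, at 0.0135, *Dgkz* at 0.0277 and *Tpcn1* at 0.0284. Nearest to *Mef2a* were *Ftsj3* at 0.0220, *Gpr137b-ps* at 0.0258 and *Rbm19* at 0.0277. These distances describe 6 libraries of 2 groups and were not tested.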

How the data were processed

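RNA sequencing of 3 control and 3 *Phf2* KO libraries of C2C12 cells was analysed, grouped by the labels. The authors aligned reads to mm10 with HISAT2 and obtained counts with StringTie; versions, annotation and strand setting were not given in the sources used here. The authors' matrix, as deposited, gives estimated counts without scaling for library size. Their deposited table for each library gives TPM, a signal scaled within that library, and coverage, used only to find that 1 estimated count stood for about 75 covered bases (median between 74.98 and 74.99). One count is therefore not 1 read, and counts divided by 4 were run as an alternative.

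After filterByExpr with a minimum count of 10 and TMM scaling, genes were tested with the quasi-likelihood test of edgeR 4.0.16 in R 4.3.3, with robust dispersion (common biological coefficient of variation 0.135). Adjusted p-values are Benjamini-Hochberg values over all 17310 genes, with a threshold of 0.05. DESeq2 1.42.0, limma 3.58.1, exactTest, other scalings, no filter and leaving out each library were alternatives. On simulated counts with 200 changed genes, the fit called 170, with 11 false calls. These counts were drawn independently with the fit's own dispersions. The simulation therefore checks the code and does not give the error rate on these data. Sums, shares and ratios were compared by two-sided exact permutation tests (SciPy 1.17.1). Libraries of the same number deviated together from their group means, with correlations of 0.235, 0.258 and 0.168 over 10923 genes. For different numbers the correlations were at most -0.00193. Deviations within a group cancel, so positive values for the same number force the others down, and the contrast adds no support. The replicate number was therefore treated only as a possible pairing seen in the data. The main fit and the permutation tests did not use it. A fit with it as a block is given in the closing section.

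Named were the 8 genes, *Phf2*, genes that share exonic bases with the 8 genes, and some of the markers. Up to 6 genes past the threshold with the largest change per list were named as well. So were the 3 genes nearest in pattern to each of the 8 genes that passed the threshold. *Jun*, *Klf2*, *Nr4a1*, *Slc2a4*, *Myl2* and *Hdac3* were named after their values were seen. The genes and lists were chosen with earlier results of these data known. The study's text names the MEF2 targets *Myog*, *Tnni1* and *Lmod3* from these samples. It also names 5 of the differentiation markers, 1 of the regulators and 1 of the 8 genes (*Mef2c*), and reports reduced *Myod1* by qPCR. The direction of all these genes is not independent evidence. Motifs were read from RefSeq promoters of GRCm38.p6. The reads and the study's other assays were not analysed here.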

Additional observations from a re-analysis of the deposited data

How the results depend on the processing

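*Mef2c*, *Mef2d* and *Mef2a* were lower past the threshold under every alternative on counts with all libraries. On TPM, limma called 0 of the 8 genes with a pseudocount of 1 and 0 with 0.1 (adjusted p for *Mef2c* 0.219 and 0.241), and the cause was not tested. On TPM, calls among all genes fell from 1122 to 158 and 178, MEF2 targets from 12 to 4 and 4, regulators from 5 to 1 and 1, and other deacetylases from 3 to 0 and 0, for the 2 pseudocounts. The log2 fold changes that reversed on TPM did not pass the threshold in either fit: *Hdac4* -0.000918 and -0.00143, *Hdac5* 0.0145 and 0.0149, and *Hdac9* 0.224 and 0.754. DESeq2 called 1441 genes and limma-voom 916. With single libraries left out, 468 to 1039 genes passed (468 without control 2, 577 without *Phf2* KO 2 and 613 without *Phf2* KO 3), with 2 to 3 of the 8 genes, 7 to 14 targets, 4 to 5 regulators and 0 to 2 other deacetylases. The replicate block as a pairing gave 1316 genes and changed no call of the 8 genes (*Mef2c* -1.52, adjusted p = 0.00102). For the sums, shares and ratios an exact sign-flip test of 3 pairs cannot go below 0.25. Depth limits *Mef2b* and *Hdac9*, with at most 26 and 253 counts per library.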
